A study of Mus musculus with 18 samples.

Results

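The age difference of the brain transcriptome was described in mice that drank apigenin, by comparing 5 mice aged 27 months (old) with 3 mice aged 6 months (young). The 8 libraries were those the labels give as apigenin-treated, out of 18 in the series, with young apigenin replicate 3 left out because much of its column has slipped by up to 4 rows relative to the gene symbols. All mice are labelled C57BL/6N males, with 1 brain per library, and all tissue is labelled whole brain taken after death. Both apigenin groups drank water with 0.5 mg/mL apigenin, a flavone of parsley and chamomile, thickened with 0.2% carboxymethylcellulose. The vehicle groups, 4 young and 5 old mice of the same ages, drank the thickened water alone. They show where the apigenin mice differ, and they share the estimate of the spread behind the tests below. How long the mice drank apigenin and at what age they began are not stated in the labels used here. Polyadenylated RNA was sequenced, and a value is a normalised read count, the reads of a gene divided by a factor of its library, so that values are compared between libraries and not between genes.

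The ageing mouse brain is known for a slow rise of innate immune genes. Microglia, its resident macrophages, pass from a homeostatic state, marked by receptors such as P2ry12, toward activated states marked by Clec7a, Itgax and Cst7. Type I interferons act through a receptor that activates a complex of transcription factors with Stat2 and Irf9, and this binds the interferon-stimulated response element before genes such as Ifit1 and Irf7. Apigenin is known to inhibit Cd38, an enzyme that degrades NAD, and to dampen NF-kB signalling in cultured cells.

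The 8 apigenin libraries held 30752711 to 38811423 reads, recovered from the steps of the deposited values, with 18131 to 19018 genes above 0. No pair of libraries within a group agreed within sampling noise, so each was counted as 1 sample. The male label was met in all 8, with Xist at 0 to 5.19 and the Y-linked Ddx3y at 1583.1 to 2108.6. Astrocyte, oligodendrocyte, neuron, endothelial and microglial markers of the labelled tissue were all present. Markers of parts of the brain differed between libraries of one group, which touches several results below and is given with its values in the paragraph on brain parts. Rn45s, the ribosomal RNA precursor, took 3.363% of the values in old apigenin replicate 2 and at most 0.393% in the other apigenin libraries.

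Between old and young apigenin mice 278 of 15808 genes differed (1.76%), at an adjusted p under 0.05 in limma with Benjamini-Hochberg adjustment over all genes tested. Of these, 224 rose (1.42% of the genes tested) and 54 fell (0.342%). Rose and fell mean higher and lower in old than in young mice, whatever the cause. More than 2-fold differences were seen in 83 of the genes that rose and 7 of those that fell. Of the 278, 19 had a mean under 10 in young apigenin mice, Cxcl10, Ccl12, Cst7 and Mmp12 among them. Genes that were low in young mice and did not rise fell below the mean of 10 over 17 libraries needed for testing. The median log2 difference was 0.789 among the genes that rose and -0.393 among those that fell, and -0.0006 over all genes tested. Of 146 tested genes on the lists of interferon, microglia, antigen presentation, complement, cytokine and innate sensing genes, 67 rose and 1 fell. At an unadjusted p under 0.05 there were 2205 genes (13.9%). Genes that rose made up 80.6% of the calls, 70.1% in DESeq2 (340 higher and 145 lower) and 58.1% in limma with array weights (1473 higher and 1064 lower). The count rested on each of the 3 young libraries, with 171 genes without young apigenin replicate 1, 149 without replicate 2 and 166 without replicate 4. The 54 genes that fell became 23, 22 and 19 without these, 32 without old replicate 2 and 105 without old replicate 5. A fit of the 8 apigenin libraries alone, with its own estimate of the spread, called 130 genes (117 higher and 13 lower). Of the genes named below whose calls no single library ended, C3, C1qc, Icam1, Ctsz and Ppp1r10 did not pass in that fit (adjusted p = 0.0551 for C3, 0.069 for C1qc, 0.0654 for Icam1, 0.0675 for Ctsz and 0.0567 for Ppp1r10, limma).

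Genes of activated microglia rose in the old apigenin brain, while 1 gene of homeostatic microglia passed and their median difference was near 0. C-type lectin receptor Clec7a (dectin-1, chromosome 6, 129461591 to 129472779 on GRCm38) had normalised read counts of 8.73, 10.3 and 17.3 in the young libraries and 109, 116, 123, 148 and 116 in the old libraries 1 to 5. The lowest old value was several times the highest young value, and Clec7a rose 10.1-fold (log2 3.28 ± 0.26 SE, adjusted p = 1.4e-06, limma). Mpeg1, a pore-forming protein of macrophages (chromosome 19, 12460779 to 12465283), had 837, 974 and 911 in young and 1664, 1649, 1955, 1783 and 1597 in old libraries. The groups did not overlap, and Mpeg1 rose 1.91-fold (log2 0.93 ± 0.09 SE, adjusted p = 1.15e-05, limma). Lag3, an inhibitory receptor that binds MHC class II (chromosome 6, 124904361 to 124911705), had 164, 178 and 176 in young and 405, 378, 455, 368 and 396 in old libraries. Both groups were narrow and apart, a rise of 2.32-fold (adjusted p = 3.41e-06, limma). Genes named for a small p are apt to have groups apart, so non-overlap here and below is a description and no further support. Without any difference, 3 and 5 libraries lie fully apart with a chance of 0.0357, and the share over all genes is not given here.

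Other members of the microglial list are known markers of the activated state. Cst7, the gene of cystatin F, an inhibitor of cathepsins, had 5.46, 5.13 and 6.05 in young and 47.5, 59.3, 57.9, 93.6 and 59.0 in old libraries, with old replicate 4 the highest (adjusted p = 0.00109, limma). Itgax, the integrin CD11c, had 13.1, 8.21 and 8.64 in young and 52.4, 87.9, 74.4, 87.9 and 87.6 in old libraries, with old replicate 1 the lowest (adjusted p = 0.000547, limma). Lyz2, lysozyme 2 of myeloid cells, had 324, 293 and 275 in young and 859.7, 726, 743, 1299.6 and 769.5 in old libraries, a rise of 2.96-fold (adjusted p = 4.78e-05, limma), and may share reads with its near copy Lyz1. The groups did not overlap for any of these genes. The lipid-sensing receptor Trem2 rose 1.73-fold, from 312 ± 10.8 (SD, n = 3) to 540.0 ± 95 (SD, n = 5), and the endosomal protein Cd68 1.7-fold, from 305 ± 18.4 to 518 ± 49.6 (adjusted p = 0.00395 and 0.00207, limma).

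Of 28 measured genes of activated microglia, 19 rose and 0 fell, with a median log2 difference of 0.861 and 28 of 28 above 0. Of 15 genes of homeostatic microglia 1 rose and 0 fell, and the list's median was 0.037. Without young apigenin replicate 1 or 4 the list gave 0 calls. Cx3cr1, the fractalkine receptor, had 1328, 1678 and 1721 in young and 1811, 1621, 2068, 1671 and 1615 in old libraries, and Tmem119 had 888, 861 and 743 in young and 962, 848, 967, 1005 and 693 in old libraries. The groups of both genes overlapped, and neither passed the test (adjusted p = 0.512 and 0.773, limma). In bulk tissue, a change in the number of cells of a type and a change in RNA per cell cannot be told apart. Of 11 measured markers of border macrophages, the macrophages of vessels and meninges, 0 passed. Summed over the 12 in the table, normalised read counts were 1037.4 to 1134.7 in young and 869.9 to 1301.8 in old libraries.

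**Figure D1:**
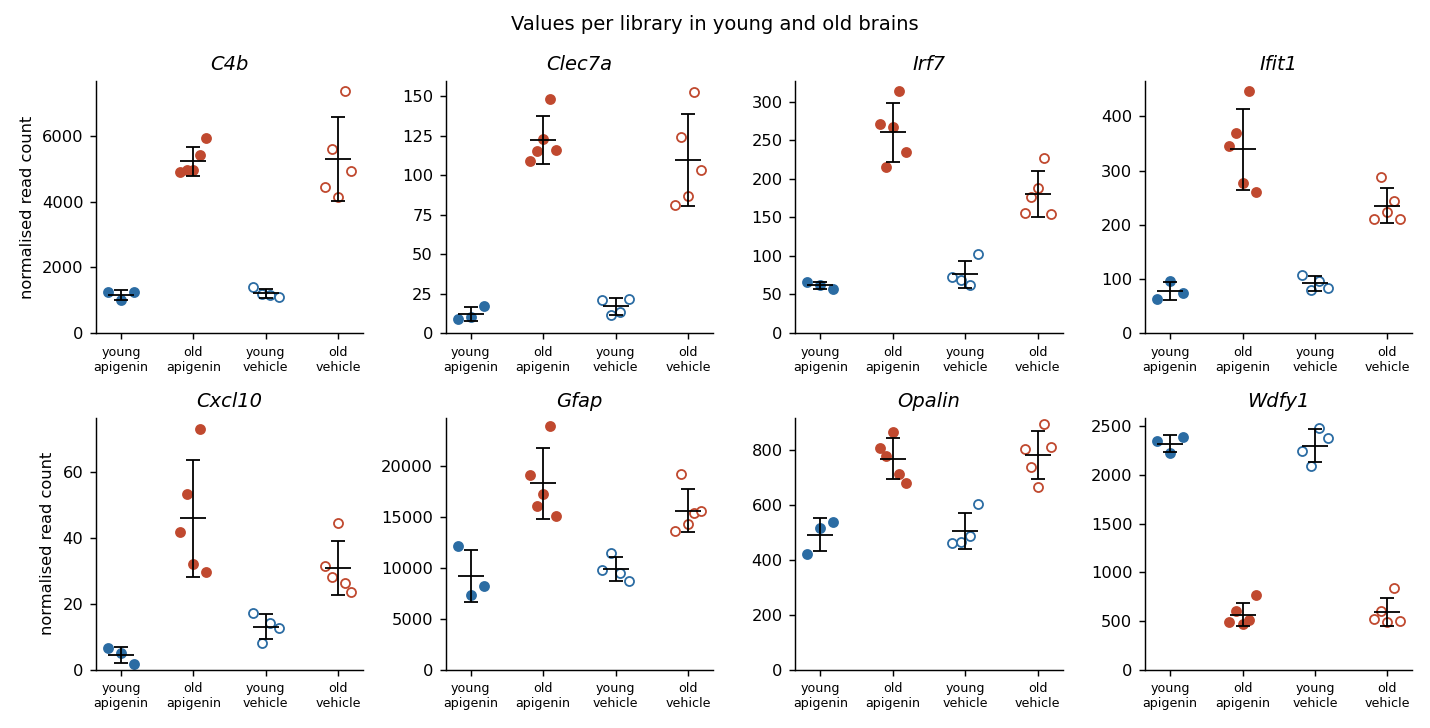
Normalised read counts (vertical axes, from 0) of 8 genes in each library, for young apigenin (n = 3), old apigenin (n = 5), young vehicle (n = 4) and old vehicle mice (n = 5), with the mean and SD as bars. The young and old apigenin libraries do not overlap for any of the 8 genes, and Wdfy1 is the gene that is lower in old mice.

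Interferon-induced genes formed the largest called group among the immune lists by count, and theirs was the list with the most measured genes. The calls were 25 of 36, beside 19 of 28 for activated microglia and 8 of 13 for MHC class I. Irf7, a transcription factor that amplifies interferon production (chromosome 7, 141262706 to 141266481), had 65.5, 62.6 and 57.1 in young and 271, 215, 267, 314 and 234 in old libraries. It rose 4.21-fold with no overlap (log2 2.05 ± 0.17 SE, adjusted p = 1.6e-06, limma). Ifit1, which binds foreign RNA ends (chromosome 19, 34640871 to 34650009), had 63.3, 95.4 and 74.3 in young and 344, 369, 277, 446 and 259.8 in old libraries. It rose 4.37-fold (log2 2.11 ± 0.18 SE, adjusted p = 2.23e-06, limma), an uncertain value because Ifit1 has close paralogs that could share reads. Oasl2, of the oligoadenylate synthetase family (chromosome 5, 114896936 to 114912234), had 176, 136 and 120.2 in young and 606, 479, 408, 672 and 428 in old libraries, a rise of 3.6-fold (adjusted p = 4.59e-05, limma). The secreted glycoprotein Lgals3bp had 780.1, 647 and 718 in young and 2202, 1937, 1633, 2234 and 1538 in old libraries, a rise of 2.67-fold (adjusted p = 1.73e-05, limma). Ifi27 had 637, 508 and 539 in young and 1234, 959.8, 945, 1361 and 971 in old libraries and rose 1.95-fold (adjusted p = 0.000146, limma). In these 5 genes every old library lay above every young one.

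Of the 36 measured genes of the type I interferon list, 25 rose and 0 fell, all 36 had a difference above 0, and the median log2 difference was 1.178. With any 1 apigenin library left out, 20 to 25 rose and the median was 1.102 to 1.248. Among the signal transducers Irf9 rose by 0.67 on the log2 scale (adjusted p = 0.025, limma), while Stat2 had a difference of 0.22 and did not pass.

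Promoters of 4 of the interferon genes that rose are printed because each holds the core of the interferon-stimulated response element, written here as GAAA, any 2 bases, GAAA. The sequences are from RefSeq on GRCm38.p6, run 5′ to 3′ along the gene's own strand from 250 bases before to 50 after the annotated start, and capitals mark the core or its reverse complement (TTTC, any 2 bases, TTTC).
Ifit1: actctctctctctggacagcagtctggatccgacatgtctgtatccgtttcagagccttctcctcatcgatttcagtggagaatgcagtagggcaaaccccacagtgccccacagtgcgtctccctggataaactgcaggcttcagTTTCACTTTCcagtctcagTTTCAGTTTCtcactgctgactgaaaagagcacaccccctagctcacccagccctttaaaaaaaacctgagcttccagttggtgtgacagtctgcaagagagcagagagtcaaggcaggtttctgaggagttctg
Rsad2: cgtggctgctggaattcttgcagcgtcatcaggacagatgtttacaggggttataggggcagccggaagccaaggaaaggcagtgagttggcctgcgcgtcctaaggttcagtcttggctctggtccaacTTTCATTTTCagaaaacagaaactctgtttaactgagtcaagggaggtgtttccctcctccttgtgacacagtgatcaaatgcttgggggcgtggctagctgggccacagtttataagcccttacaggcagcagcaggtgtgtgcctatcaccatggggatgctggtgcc
Bst2: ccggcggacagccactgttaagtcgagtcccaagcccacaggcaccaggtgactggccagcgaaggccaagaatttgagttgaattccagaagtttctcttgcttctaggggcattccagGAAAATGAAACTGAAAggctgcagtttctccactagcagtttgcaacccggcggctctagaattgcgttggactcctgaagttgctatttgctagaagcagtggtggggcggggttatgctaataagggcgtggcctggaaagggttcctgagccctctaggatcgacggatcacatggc
Ifit3: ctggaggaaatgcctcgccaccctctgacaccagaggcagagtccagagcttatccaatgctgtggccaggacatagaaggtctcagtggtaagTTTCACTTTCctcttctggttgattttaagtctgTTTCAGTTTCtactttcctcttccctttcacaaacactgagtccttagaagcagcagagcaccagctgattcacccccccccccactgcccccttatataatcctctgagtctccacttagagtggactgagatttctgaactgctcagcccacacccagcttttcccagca
The Ifit1 window (chr19:34640639-34640938, + strand) has its 2 cores 104 and 85 bases before the start. The Rsad2 window (chr12:26456403-26456702, - strand) has 1 core, 120 bases before the start. The Bst2 window (chr8:71537423-71537722, - strand) has 2 overlapping cores at 130 and 124 bases. The Ifit3 window (chr19:34583279-34583578, + strand) has 2 cores at 156 and 122 bases. Distances are to the core's first base in the printed direction. On either strand the core was found in 469 of 15830 promoter windows of the genes tested (2.96%). A share over the interferon list is void, because 25 of its 36 genes had a window in the table used, under 80%. Windows were found for 12453 of the 15808 genes tested, also under 80%, so the 2.96% holds for those genes only. Besides Ifit1, the log2 differences were 1.33 for Rsad2 (viperin), 1.43 for Bst2 (tetherin, which holds budding viruses at the membrane) and 1.75 for Ifit3, whose reads may be shared with Ifit3b. A match describes letters and shows neither binding nor a cause.

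**Figure D2:**
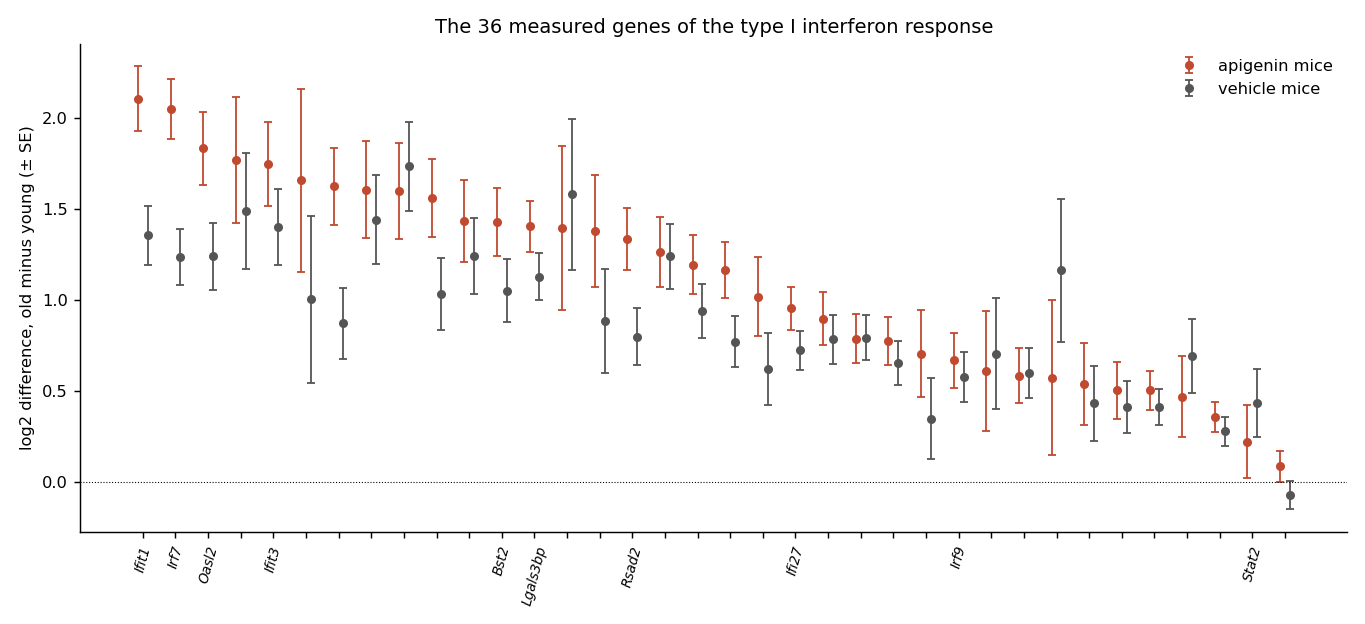
Log2 difference between old and young mice, with its SE, of the 36 measured interferon genes, in apigenin mice (5 old, 3 young) and vehicle mice (5 old, 4 young), ordered by the value in apigenin mice, with names under 10 of them that the text describes. All 36 values in apigenin mice are above 0, from 0.083 to 2.105.

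Antigen presentation by MHC class I, which shows peptides of the cell's own proteins to T cells, rose in the genes for its parts. B2m, the light chain, had 3268, 3046 and 2859 in young and 5276, 4565, 4834, 6583 and 4223 in old libraries, a rise of 1.67-fold (adjusted p = 0.000603, limma). Heavy chain gene H2-K1 had 1022, 828.8 and 922 in young and 1839, 1732, 1769.9, 2732 and 1631 in old libraries, and H2-Q4 had 162, 106 and 151 in young and 304, 371, 323, 525.5 and 339.5 in old libraries. Both rose (2.1-fold and 2.67-fold, adjusted p = 0.000138 and 0.000142, limma), with old replicate 4 the highest in each, and both are uncertain because H2 genes are alike in sequence. The peptide transporter Tap1 rose 2.17-fold and the immunoproteasome subunit Psmb8 2.21-fold (adjusted p = 0.0038 and 0.00131, limma). Of 13 measured genes of this list 8 rose and 0 fell, with a median log2 difference of 0.744.

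Markers of T cells, the cells that read these peptides, were low. Of 18 T cell markers 4 reached the mean needed for testing and 0 passed. Summed over the 15 of them in the table, normalised read counts were 241.1 to 450.3 in young and 410.2 to 588.2 in old libraries, which overlapped. Cd4 was the largest part of the sum, with 109.1, 277.0 and 196.2 in the young libraries. The overlap thus says little about the markers of a few reads. Among these, Cd3g was at 0 in 2 of 3 young and 0 of 5 old libraries, and Gzmb in 2 of 3 young and 4 of 5 old libraries. Cd3d was at 0 in all 3 young libraries and in 1 of 5 old libraries, where the highest value was 6.62, and Cd3e reached 8.21 in young and 11.3 in old libraries. Of 13 B and plasma cell markers 4 were tested and 0 passed. The part of such cells in the rise of MHC and interferon genes was not tested.

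Complement genes moved in both directions. C4b, whose product acts in the classical and lectin pathways (chromosome 17, 34728380 to 34743882), had 1256, 999 and 1236 in young and 4901, 4966, 4974, 5420.5 and 5938 in old libraries. It had the smallest adjusted p of all genes but 1 predicted one and rose 4.5-fold with no overlap (log2 2.17 ± 0.14 SE, adjusted p = 1.26e-07, limma), and reads may be shared with C4a, whose log2 difference was -0.37 without passing. C3, on which all routes of the cascade meet, had 204, 90.3 and 89.0 in young and 344, 325, 223, 484 and 377 in old libraries and rose 2.74-fold (adjusted p = 0.00348, limma). Its fragment's receptor C3ar1 rose 2.05-fold and C1qc, a chain of the recognition molecule C1q, 1.55-fold (adjusted p = 0.00366 and 0.00517, limma). Cd59a, which blocks the membrane attack complex, had 792, 611 and 662 in young and 352, 294, 295, 512 and 297 in old libraries and fell, from a mean of 689 ± 93.2 (SD, n = 3) to 350.1 ± 93.9 (SD, n = 5, adjusted p = 0.00395, limma), with old replicate 4 the highest of its group. In all, 6 of 17 measured complement genes rose and 1 fell, with a median of 0.382.

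Secreted signals showed few calls. Il33, an alarmin held in nuclei of glia (chromosome 19, 29925114 to 29960718), had 1972, 2361 and 1847 in young and 3795, 3428, 3498, 3521 and 3169 in old libraries, a rise of 1.69-fold (adjusted p = 3.99e-05, limma). Cxcl10, a chemokine induced by interferon (chromosome 5, 92346638 to 92348889), had 6.55, 5.13 and 1.73 in young and 41.7, 53.2, 32.0, 72.8 and 29.5 in old libraries. It rose by 3.15 ± 0.36 (SE) on the log2 scale (adjusted p = 8e-05, limma), from a level of a few reads. Ccl12, a chemokine of monocytes, and Tgfb1, an anti-inflammatory growth factor, passed narrowly (log2 1.81 ± 0.43 and 0.33 ± 0.08 SE, adjusted p = 0.0378 and 0.0396, limma). The Ccl12 call was lost without any one of the libraries except old replicate 5 (up to 0.173 without young replicate 2). The Tgfb1 call was lost without any one except old replicate 2 or 5 (up to 0.177 without young replicate 1). These 4 were the cytokines and chemokines that passed, out of 13 measured of 21. Cxcl10 and Ccl12 had young apigenin values under 10 and reached the mean of 10 needed for testing largely through old libraries. The share of 4 in 13 therefore leans toward genes that rose. On the list of NF-kB and sensors of microbes, 4 of 24 measured genes rose and none fell, with a median of 0.281 (2 without old replicate 1, 2 or 4 or young replicate 4, and 1 without young replicate 2). Adhesion molecule Icam1 (1.93-fold, adjusted p = 0.00408, limma) and the TNF receptor Tnfrsf1b (1.59-fold, adjusted p = 0.0113) were followed by Cd14 and Tlr2 near the threshold (adjusted p = 0.0452 and 0.0489), and these did not pass without any one of the 3 young libraries or old replicate 1, 2 or 4, nor Cd14 without old replicate 3 (adjusted p up to 0.203 and 0.239). The Tnfrsf1b call was lost without young apigenin replicate 2 or 4 (adjusted p = 0.0757 and 0.0502).

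**Figure D3:**
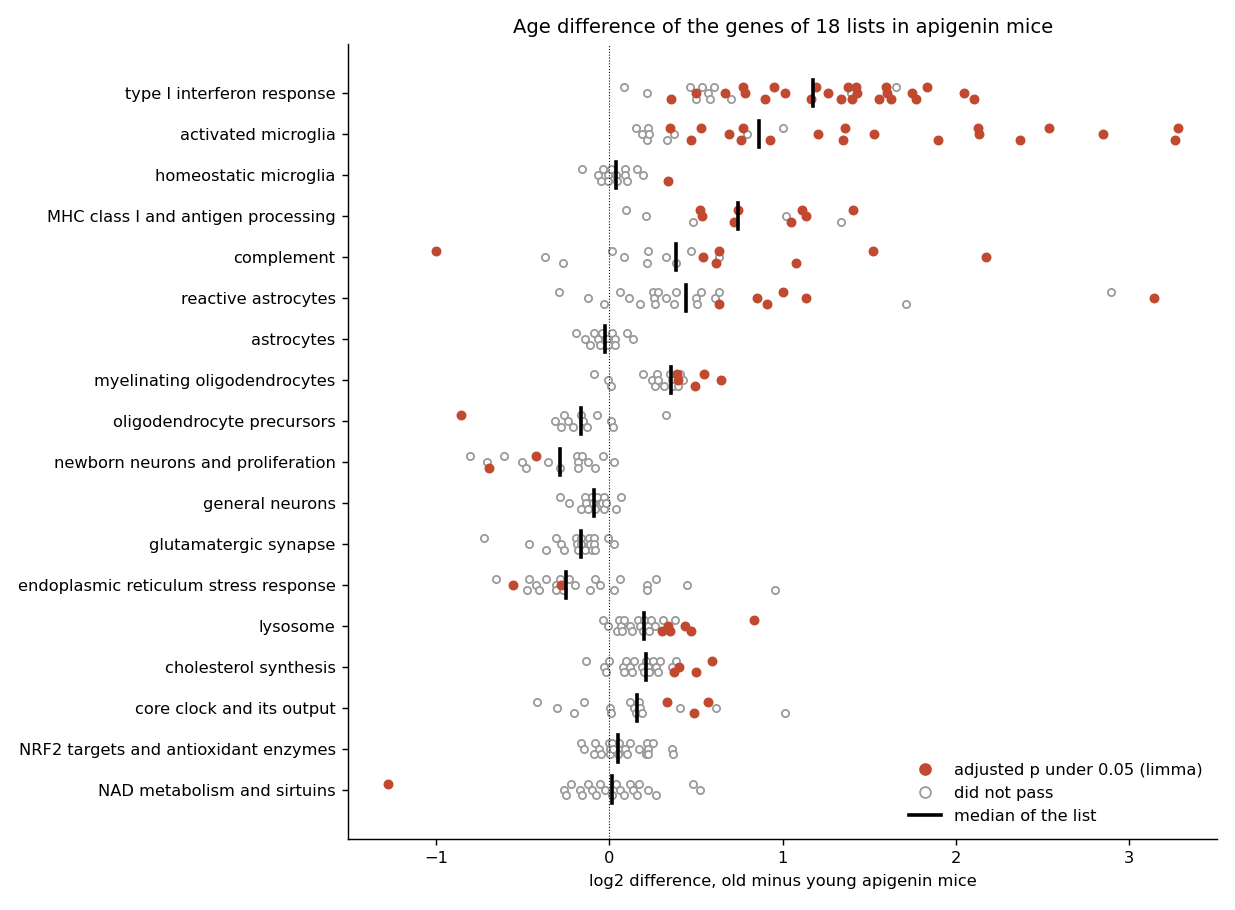
Log2 difference between old and young apigenin mice (horizontal axis) of each measured gene in 18 lists, filled where the gene passed limma's adjusted p of 0.05, with the median of each list as a bar. Medians lie at 1.178 for interferon genes and 0.861 for activated microglia, and at 0.037 for homeostatic microglia, -0.028 for astrocytes and -0.089 for general neurons.

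Astrocytes, the support cells that take up glutamate, showed calls among genes of their reactive state and none among general markers. Gfap, the intermediate filament of astrocytes (chromosome 11, 102887336 to 102900912), had 12161, 7315 and 8267 in young and 19119.5, 16141, 17265, 23927 and 15158 in old libraries. The lowest old value lay above the highest young value, that of young replicate 1, and Gfap rose 1.98-fold, from 9248 ± 2567 (SD, n = 3) to 18322 ± 3462 (SD, n = 5, adjusted p = 0.00196, limma). Serpina3n, a secreted protease inhibitor, had 856, 772 and 660.5 in young and 1346, 1375, 1556, 1517 and 1347 in old libraries and rose 1.87-fold (adjusted p = 0.000582, limma). The oncostatin M receptor Osmr rose 1.79-fold (adjusted p = 0.00629, limma), a call lost without young apigenin replicate 1 (0.0594). Lcn2, an iron-binding lipocalin, had 12, 33.9 and 6.92 in young and 137, 68.5, 94.1, 365 and 57.1 in old libraries, wide in both groups and without overlap, and did not pass (adjusted p = 0.0562, limma). On the reactive astrocyte list, which shares Cxcl10 and Psmb8 with lists above, 6 of 26 genes rose and none fell, with a median of 0.441. Of 14 astrocyte markers such as Slc1a2, Gja1 and Aldh1l1, 0 passed, with a median of -0.028 and log2 differences from -0.195 to 0.134.

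Myelin genes were higher in old apigenin mice by small amounts. Opalin, a membrane protein of oligodendrocytes (chromosome 19, 41061710 to 41077113), had 422, 517 and 537 in young and 806, 779.9, 864, 712 and 679 in old libraries and rose 1.56-fold (log2 0.64 ± 0.12 SE, adjusted p = 0.00493, limma). The tight junction protein Cldn11 of myelin had 4746, 4689.9 and 4030.2 in young and 5889, 5878, 6285, 6037 and 5377 in old libraries and rose 1.31-fold (adjusted p = 0.0158, limma). Cnp, Aspa and the iron carrier Trf made up the 5 that passed of 20, at 1.31-fold, 1.41-fold and 1.47-fold. Mbp, myelin basic protein, had 133011, 141048 and 114656 in young and 158978, 167324, 165078, 185437 and 155449.5 in old libraries, which did not overlap, and did not pass (adjusted p = 0.12, limma). The list's median was 0.357, with 18 of 20 genes above 0. These calls rested on single libraries. The count was 3 without old apigenin replicate 1, 2 without old replicate 4, 2 without young replicate 1, 2 without young replicate 2 and 1 without young replicate 4, while the median stayed at 0.278 to 0.394. With young replicate 1 and old replicate 3 both left out, the libraries that stand apart in markers of brain parts, 0 genes passed and the median was 0.389.

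A few genes of immature cells fell. Gpr17, a receptor of oligodendrocyte precursors about to mature, had 1709.7, 2099.8 and 1783 in young and 1179.9, 822, 1312, 1007 and 890.5 in old libraries and fell by 0.85 ± 0.14 (SE) on the log2 scale (adjusted p = 0.00235, limma). It was the only one of 13 precursor genes to pass, and their median was -0.164. Sox4, a transcription factor of newborn neurons, had 813, 836 and 1026 in young and 527, 522, 601, 613 and 486 in old libraries. Sox11, of the same family, had 957, 913 and 1029 in young and 682, 729, 832, 659.7 and 698 in old libraries. The groups did not overlap, and both fell (log2 -0.69 ± 0.13 and -0.43 ± 0.09 SE, adjusted p = 0.00963 and 0.0144, limma). Without young apigenin replicate 4 neither passed (0.084 and 0.105), and Sox11 did not pass without young replicate 1 (0.0594). Dcx, the microtubule protein of migrating neurons, had 555, 637 and 1047 in young and 561, 510.1, 531, 449 and 814 in old libraries, which overlapped (adjusted p = 0.677, limma). Top2a, a topoisomerase of dividing cells, was at 40.4, 41.0 and 39.8 in young and 28.1, 21.5, 24.8, 26.5 and 21.6 in old libraries without passing (adjusted p = 0.185). Of 17 measured genes of newborn neurons and proliferation 2 fell and 0 rose, with a median of -0.288 and 1 gene above 0.

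The 4 lists of mature neuron genes gave no calls, while Gabra2, Hrk and Elfn1, described below, are outside these lists. Of 16 general neuron genes, 20 genes of the glutamatergic synapse, 17 of GABAergic neurons and 20 activity-regulated immediate early genes, 0 passed, with medians of -0.089, -0.166, 0.018 and -0.215. In the same order 14, 19, 7 and 17 genes were below 0, and 3, 6, 0 and 2 had an unadjusted p under 0.05 (limma). Over all settings up to 3, 6, 0 and 3 of them fell and 0 rose. Syn1, a synaptic vesicle protein, had 26078, 28968 and 26689 in young and 24361, 21884, 26504, 21241 and 22309 in old libraries, which overlapped only through old replicate 3 (adjusted p = 0.173, limma). Nptx2, a pentraxin of excitatory synapses, had 2266, 2552 and 1523 in young and 1199, 825, 1919, 1438 and 1119 in old libraries, which also overlapped (adjusted p = 0.115). Egr3, an activity-induced transcription factor, was at 6346, 7356 and 4833 in young and 4043, 3657, 6394, 3617 and 4157 in old libraries, with old replicate 3 in the young range (adjusted p = 0.201). Bdnf, the neurotrophin, had a log2 difference of 0.02 ± 0.15 (SE).

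Protein folding and vascular genes gave few calls at the adjusted threshold, while many protein folding genes had a small unadjusted p. Hspa5, the main chaperone of the endoplasmic reticulum (BiP), had 15857, 14918 and 11876 in young and 9546, 7797, 10642, 11680.2 and 8819 in old libraries and fell by 0.56 ± 0.12 (SE) on the log2 scale (adjusted p = 0.0217, limma). Hyou1, another chaperone there, had 5211, 5116 and 5089 in young and 4092, 3812, 4562, 4439 and 4299 in old libraries and fell by 0.28 ± 0.06 (adjusted p = 0.0209). These 2 were the genes that fell out of 24 of the endoplasmic reticulum stress response, with a median of -0.252. Both calls were lost without young apigenin replicate 1 (0.15 for Hspa5 and 0.101 for Hyou1) or replicate 2 (0.127 and 0.0889), and that of Hyou1 also without young replicate 4 (0.0788) or old replicate 1 (0.0594). The count of the list was 9 without old replicate 4, 5 without old replicate 3, 3 without young replicate 4 and 1 without old replicate 1. Of its 24 genes 17 were below 0 and 7 above, and 19 had an unadjusted p under 0.05 (limma), against 13.9% of all genes tested. Over all settings 0 to 13 of them fell and 0 to 4 rose. Of 19 heat shock genes 0 passed, with a median of -0.187. Of these, 17 were below 0, 9 had an unadjusted p under 0.05 (limma), and 0 to 5 fell over all settings. Of 25 collagen and matrix assembly genes 0 passed, with a median of -0.286. Here 18 were below 0, 5 had an unadjusted p under 0.05 (limma), and 0 to 11 fell over all settings. Vwf, the clotting factor of endothelium (chromosome 6, 125546774 to 125686679), had 719, 800.1 and 670.0 in young and 1258, 1233, 1271, 1623 and 1589 in old libraries and rose 1.91-fold (log2 0.93 ± 0.14 SE, adjusted p = 0.00113, limma). It was the 1 gene of 17 endothelial markers to pass, and 0 of 14 markers of pericytes and smooth muscle did.

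Lysosomal, sterol and clock genes rose in part. Ctss, cathepsin S of macrophages (chromosome 3, 95526786 to 95556403), had 2327, 2411 and 2219 in young and 4264, 3788, 4394, 5165 and 3284 in old libraries and rose 1.8-fold (adjusted p = 0.000258, limma). Lysosomal mannosidase Man2b1 rose 1.35-fold and cathepsin Ctsz 1.4-fold (adjusted p = 0.00211 and 0.0041), and 6 of 25 measured lysosome genes rose in all, with a median of 0.20. That count was 3 without young apigenin replicate 1 and 3 without young replicate 4. Insig1, which holds the sterol sensor in the endoplasmic reticulum, rose 1.42-fold (adjusted p = 0.00629, and 0.0663 without young replicate 2). With the enzymes Mvd and Hsd17b7, near the threshold (adjusted p = 0.0247 and 0.0316), 4 of 25 cholesterol synthesis genes rose, with a median of 0.213. Neither Mvd nor Hsd17b7 passed without old replicate 1, 2 or 4, or without young replicate 2 or 4 (up to 0.183 and 0.214), nor did Mvd without old replicate 3 (0.0538).

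Among 18 clock genes Bhlhe41, Nr1d1 and Bhlhe40 rose, all of them repressors of transcription. Bhlhe41 (Dec2, chromosome 6, 145858243 to 145865558) had 2179, 2033 and 2027 in young and 3155, 3296, 2751, 3288 and 2978 in old libraries, a rise of 1.49-fold (adjusted p = 0.00229, limma). Nr1d1 (Rev-erb alpha) had 6959, 6744 and 6458 in young and 8407, 8931, 8279, 8623 and 8044 in old libraries, a rise of 1.26-fold (adjusted p = 0.00741, and 0.0576 without young replicate 4). Bhlhe40 rose 1.39-fold (adjusted p = 0.0186, and 0.0827 and 0.158 without young replicate 2 or 4). Dbp, a clock output gene, was at 1620.2, 1198 and 1329 in young and 2416, 2276, 1785, 2364 and 1757 in old libraries and did not pass (adjusted p = 0.059). The hour of death is not stated in the labels used here, and its part in these differences was not tested. The list's count was 5 without old replicate 3, 5 without old replicate 5, 2 without young replicate 2 and 1 without young replicate 4.

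Lists of NAD metabolism and of antioxidant and drug responses, tied to known actions of apigenin, gave 1 call. Of 23 measured genes of NAD metabolism and sirtuins only Nnt passed, which is described with the substrain genes. Cd38 had 322, 229 and 286 in young and 296, 259, 158, 376 and 249 in old libraries. The old libraries spanned the young ones, and the difference was -0.10 ± 0.21 on the log2 scale (SE, adjusted p = 0.88, limma). Sirt1, an NAD-dependent deacetylase, and Nampt, the enzyme that salvages NAD, had differences of 0.06 ± 0.13 and 0.17 ± 0.07 (adjusted p = 0.89 and 0.252). Of 24 genes of the NRF2 antioxidant response 0 passed, with a median of 0.051. Of 16 measured genes of the aryl hydrocarbon receptor and drug handling 0 passed, with a median of 0.154. Cyp1b1, a target of that receptor, had 188, 170.3 and 182 in young and 224, 213, 183, 391 and 256 in old libraries, which overlapped. Of 22 p53 genes and 18 measured autophagy genes 0 passed. Among 19 measured genes of cell senescence Mmp12, macrophage elastase, passed, with 0, 1.03 and 2.59 in young and 13.6, 13.3, 16.5, 36.9 and 15.7 in old libraries, higher by 3.27 ± 0.53 (SE) on the log2 scale (adjusted p = 0.00229). The list's median was -0.013, and Cdkn1a, the cell cycle inhibitor p21, had 1099, 1255 and 622 in young and 741, 733, 1034, 824 and 735 in old libraries, which overlapped.

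The 3 falls with the smallest p-values were in genes known to differ between substrains of C57BL/6. Wdfy1, an endosomal adaptor (chromosome 1, 79702262 to 79776143), had 2351, 2225 and 2385 in young and 494, 605, 464, 507 and 763 in old libraries and fell by 2.06 ± 0.16 (SE) on the log2 scale (adjusted p = 1.4e-06, limma). Gabra2, a GABA-A receptor subunit (chromosome 5, 70957597 to 71095849), had 2485, 2514 and 2787 in young and 725, 604, 855, 719 and 812 in old libraries and fell by 1.81 ± 0.15 (adjusted p = 2.3e-06). Nnt, the mitochondrial transhydrogenase that makes NADPH, had 1453, 1452 and 1324 in young and 596, 470.2, 624, 613 and 610.1 in old libraries and fell by 1.28 ± 0.13 (adjusted p = 2.39e-05). The groups did not overlap in any of the 3. Crb1, a cell polarity gene of the same list, had 15.3, 5.13 and 20.7 in young and 73.7, 41.9, 68.2, 76.6 and 50.2 in old libraries and rose 4.53-fold (adjusted p = 0.00348), while Ide, the insulin-degrading enzyme, had 1852, 1704 and 1795 in young and 2568, 3373, 3204, 3322 and 1862 in old libraries and did not pass (adjusted p = 0.078). In vehicle mice the differences were -1.99 for Wdfy1, -1.76 for Gabra2, -1.20 for Nnt and 1.90 for Crb1. The strain field names C57BL/6N for all mice, and the text on their keeping only C57BL/6. The labels do not say whether young and old mice came from the same colony, so source and age cannot be told apart for these genes. If the sources differed, the same limit holds for every other gene called between old and young mice. The predicted gene Gm15446, named after its values were seen, had the smallest adjusted p of all (2.14e-09, limma). It was at 0 in all 3 young apigenin and all 4 young vehicle libraries, between 67.5 and 168 in the old apigenin libraries and between 87.0 and 222 in the old vehicle libraries.

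The other genes with small p-values belong to several functions. Among those that rose, Ly9, a SLAM-family receptor of immune cells, had 9.82, 8.21 and 13.8 in young and 62.1, 47.0, 40.3, 74.7 and 58.1 in old libraries (5.31-fold, adjusted p = 3.99e-05, limma). Adss, an enzyme of purine synthesis, had 1795, 1822 and 1780.0 in young and 2599, 2443, 2499, 2613 and 2610.5 in old libraries (1.42-fold, adjusted p = 4.12e-05). Pcdhb9, a clustered protocadherin of neuron recognition, had 578, 498 and 548 in young and 1002, 864, 902, 945 and 981 in old libraries (1.73-fold, adjusted p = 3.99e-05). The groups did not overlap in any of these genes, and in Adss and Pcdhb9 the gap between them was wider than either group. Of 32 measured clustered protocadherins 9 rose and 0 fell, all 9 of the beta cluster, which lies within 1 stretch of a chromosome and whose members are alike in sequence, so that shared reads make them uncertain. The list's median was 0.074, and the count was 5 without young replicate 1 and 5 without young replicate 2.

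Among the genes that fell, tenascin C (Tnc), a matrix glycoprotein of stem cell niches, had 483, 378 and 559 in young and 196, 165, 161, 245 and 180.1 in old libraries, a fall of 1.32 ± 0.23 (SE) on the log2 scale (adjusted p = 0.00408, limma). Dynlt1b, a dynein light chain with near-identical copies that could share reads, had 114, 89.2 and 101.1 in young and 24.3, 49.1, 23.8, 31.2 and 52.2 in old libraries (adjusted p = 0.00395). Hrk, a pro-apoptotic protein of neurons, had 1868, 1796 and 2002 in young and 1201, 1316, 1525, 1351 and 1217 in old libraries (adjusted p = 0.00629, and 0.0502 without young replicate 4). All young values lay above all old ones in these genes. The polyadenylation factor Fip1l1 fell by 0.35 ± 0.06, Ppp1r10, a nuclear regulator of protein phosphatase 1, by 0.41 ± 0.07, the phosphatase Ppm1h by 0.28 ± 0.05 and the synaptic protein Elfn1 by 0.49 ± 0.09 (adjusted p = 0.00229, 0.00336, 0.00637 and 0.00695). The Ppm1h call was lost without young replicate 1 (0.0617) and that of Elfn1 without young replicate 2 (0.0663).

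Markers of parts of the brain varied between libraries of one group, although all are labelled whole brain. Summed over 15 genes of the cerebellum, old apigenin replicate 3 had 41331.4, the other old libraries 93100.9 to 114100.8 and the young libraries 79817.3 to 116462.3. Gabra6, a receptor subunit of cerebellar granule cells, was 1782, 2516, 1.03, 2848 and 2433 in the old libraries, and Pcp2 of Purkinje cells 970.3, 1077, 2.07, 1713 and 811, so that old replicate 3 was near 0 for both. Summed over 20 genes of brainstem and spinal cord, of which 19 were tested, young replicate 1 had 3045.1 and the other young libraries 950.9 and 1014.5, while the old libraries ranged from 411.5 in replicate 3 to 2713.5 in replicate 4. Hoxb5, a gene of hindbrain and spinal cord, was 247, 23.6 and 9.51 in young and 169.8, 18.4, 0, 283 and 9.84 in old libraries. High Hoxb5 values were thus found in young replicate 1 and old replicates 1 and 4. Hoxa3, Hoxa5 and Hoxd3 were also low in old replicate 5, while 2 other genes of the list were high there. Glra1 had 403.4 in old replicate 5 (331.9 and 267.5 in old replicates 1 and 4) and Slc6a5 331.6 (344.5 and 357.3). In both lists 0 genes passed, and the median log2 difference was -0.357 for the cerebellum and -0.40 for the brainstem list, moving to 0.15 and 1.163 with old replicate 3 and young replicate 1 left out, a choice made after seeing the data. Without both libraries 166 genes passed over the whole table, 137 higher and 29 lower, of which 146 were among the 278. That fit did not even out the brainstem markers, whose median was further from 0 at 1.163. The calls it kept or lost therefore cannot tell age from the share of brain parts. In that fit 22 interferon genes, 18 activated microglia genes and 7 MHC class I genes rose, as did 3 of complement and 3 of lysosomes, and the falls of Cd59a and Dynlt1b and the rises of C3ar1 and Opalin no longer passed (adjusted p = 0.065, 0.0546, 0.0587 and 0.0887).

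**Figure D4:**
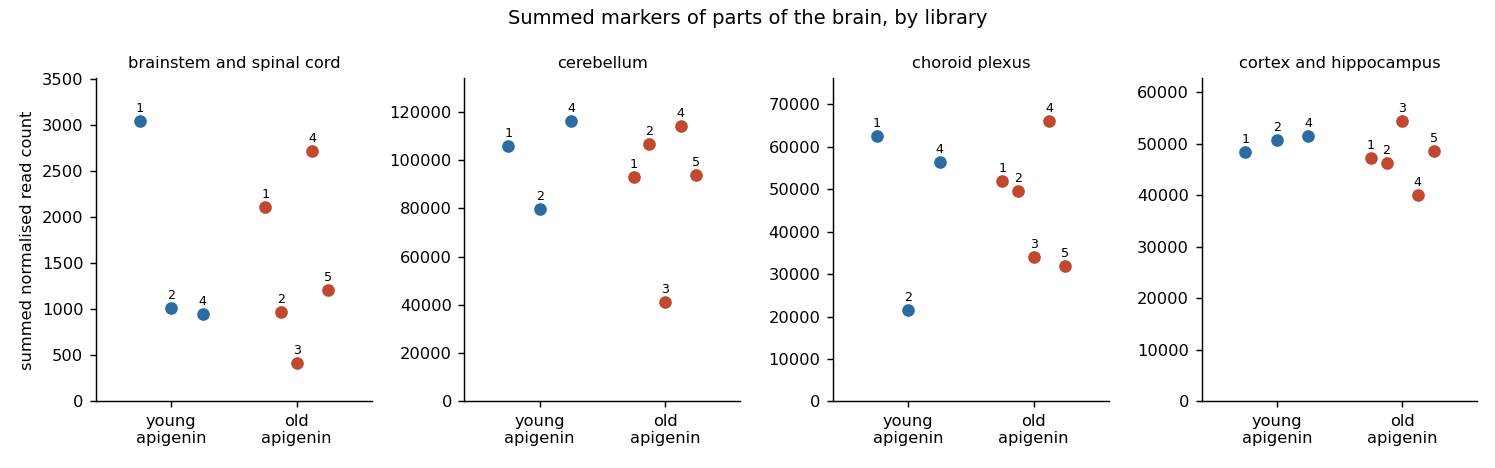
Summed normalised read counts (vertical axes, from 0) of markers of 4 parts of the brain in each apigenin library, with the replicate number beside each point. Old replicate 3 is lowest in the cerebellum panel at 41331.4 and young replicate 1 is highest in the brainstem panel at 3045.1.

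The age difference in apigenin mice was then set beside that in vehicle mice. In vehicle mice 622 of 15808 genes passed (3.93%), with 4 young libraries in place of 3, and with any 3 of the young vehicle libraries 246 to 441 passed. The test of the difference between the age effects, on the same 17 libraries, called 0 genes (0.0%, smallest adjusted p of 1.0 in limma), with 196 genes at an unadjusted p under 0.05 (1.24%). By edgeR and DESeq2 it also called 0, with 193 and 185 genes at an unadjusted p under 0.05. Chance alone would place a fraction of about 0.05 of the genes there, more than the 1.24% found. The p-values of this test thus ran high, and the reason was not tested. When simulated effects were put into 100 genes, the test recovered 31 at a size of 1.5-fold and 70 at 2-fold. Whether it recovers as many in the measured libraries was not tested. A larger difference there, that of Cxcl10 given below, was not called. Effects of 1.5-fold or 2-fold can therefore be missed, and 0 calls does not show that the age effects are equal. Of the genes called in apigenin mice, 216 were also called in vehicle mice, which is 77.7% of the apigenin calls and 34.7% of the vehicle calls, and 277 of the 278 had the same sign there, all but Tgfb1 (-0.02 on the log2 scale in vehicle mice). The 62 genes that passed in apigenin mice alone, and so were picked on their values there, had a median log2 difference in the direction of that group of 0.484 in apigenin and 0.279 in vehicle mice. For the 406 that passed in vehicle mice alone the medians, in the vehicle direction, were 0.281 in apigenin and 0.449 in vehicle mice. The difference of the age effects was not called for any of them.

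**Figure D5:**
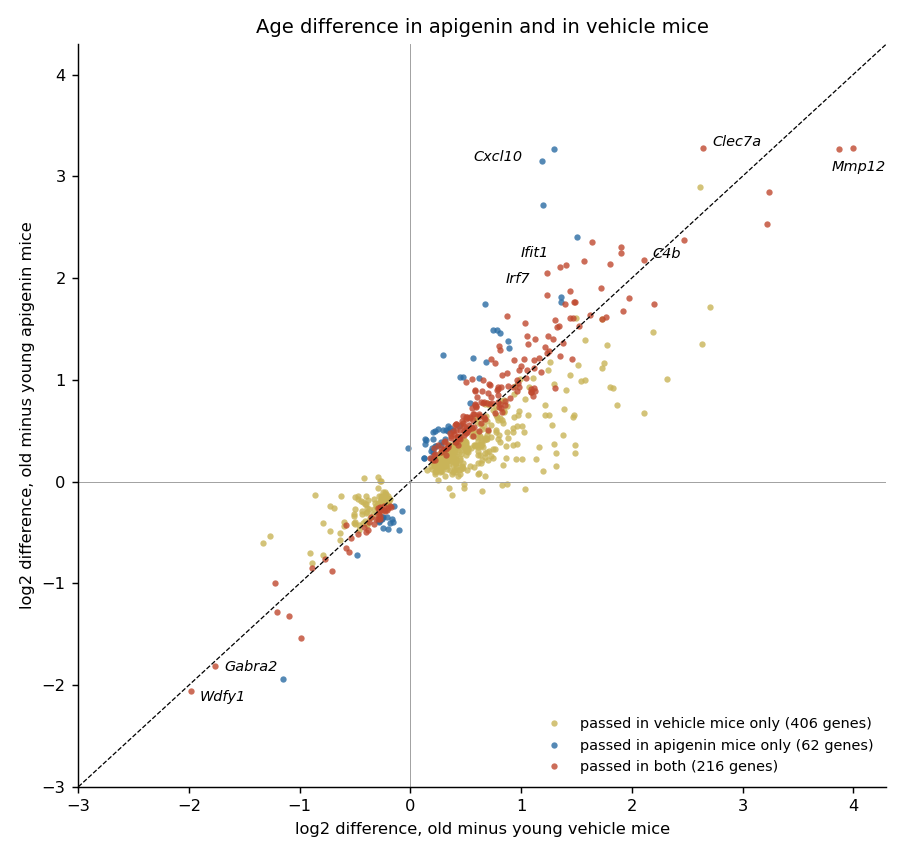
Log2 difference between old and young mice in vehicle mice (horizontal axis) and apigenin mice (vertical axis) of each gene that passed in either, with the line of equal differences dashed. Of the points, 216 passed in both, 62 in apigenin mice and 406 in vehicle mice, and 277 of the 278 apigenin calls and 610 of the 622 vehicle calls lie on the same side of 0 on both axes.

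Some immune genes had larger age differences in apigenin mice, without passing that test. Irf7 went from 76.5 ± 17.5 (SD, n = 4) to 180.1 ± 29.5 (SD, n = 5) in vehicle mice and from 61.7 ± 4.27 (SD, n = 3) to 260.0 ± 38 (SD, n = 5) in apigenin mice, so the log2 age difference was larger by 0.81 ± 0.23 (SE) under apigenin (unadjusted p = 0.00227, limma). Cxcl10 went from 13 ± 3.74 to 30.7 ± 8.16 in vehicle mice and from 4.47 ± 2.48 to 45.8 ± 17.7 in apigenin mice, a difference of 1.96 ± 0.49 (unadjusted p = 0.000945). Its young level was lower and its old level higher under apigenin. Tgfb1 had 0.35 ± 0.11 (unadjusted p = 0.00455), Gimap6, a GTPase of immune cells, 0.83 ± 0.25 (0.00428), and Coa7, of the respiratory chain, 0.34 ± 0.10 (0.0037). On the other side were Pbld2 at -1.07 ± 0.29 (unadjusted p = 0.00185), A630072M18Rik at -0.51 ± 0.14, Nkiras2, an inhibitor of NF-kB signalling, at -0.49 ± 0.15, and Gt(ROSA)26Sor at -0.86 ± 0.27.

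Over the 36 interferon genes the median log2 difference was 1.178 in apigenin mice and 0.834 in vehicle mice, with 25 and 24 genes called. The difference of the age effects was above 0 for 28 of the 36, with a median of 0.177, and 5 had an unadjusted p under 0.05. Over all genes tested its median was -0.0286 and 1.24% had such a p, while the share above 0 was not counted. The list's mean log2 value overlapped between old apigenin (7.53 to 8.04) and old vehicle libraries (7.36 to 7.7). It also overlapped between young apigenin (6.57 to 6.74) and young vehicle libraries (6.42 to 6.8). Genes of a list can vary together, so 28 of 36 is a description and no further support. Over activated microglia genes the medians were 0.861 and 0.908, with 19 genes called in each. Over myelin genes 5 were called in apigenin mice and 10 in vehicle mice, with medians of 0.357 and 0.315. For C4b the log2 differences were 2.17 ± 0.14 (SE) in apigenin and 2.11 in vehicle mice, with a difference of 0.07 ± 0.19 (unadjusted p = 0.739, limma). For Mpeg1 they were 0.93 ± 0.09 and 0.98, for Vwf 0.93 ± 0.14 and 0.93, and for Gpr17 -0.85 ± 0.14 and -0.89.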

How the data were processed

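Polyadenylated RNA of whole brains was sequenced from TruSeq libraries, per the labels' protocols. The authors deposited 1 table of a normalised read signal, a gene's reads divided by a factor of its library. STAR, DESeq2 and mm10 are named in the submitters' processing notes, without versions, while the annotation, counting program and use of strand were not given in the sources used here. If strand was ignored, reads of overlapping genes cannot be told apart. In every apigenin library 100.0% of values were whole multiples of 1 step within 0.01 read, and column totals were 33551217.2 to 33553859.7.

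Young apigenin replicate 3 was left out (median correlation with the other libraries 0.8064, against 0.9895 or more among the 17 fitted), as were the last 6 of 24411 rows, where cells are displaced. Genes with a mean of at least 10 over the 17 libraries were tested (15808). limma 3.58.1 (R 4.3.3) fitted 4 group means to log2(value + 1) with a mean-variance trend. All p-values are two-sided, adjusted by Benjamini and Hochberg's method over all genes tested, and called under 0.05. Fold changes are ratios of group means, and log2 differences understate changes of low genes. The p-values measure the spread between mice within each group. edgeR 4.0.16 and DESeq2 1.42.0 on recovered reads were alternatives, beside other pseudocounts, filters and scaling, array weights, a brainstem covariate, a replicate block and libraries left out. The fits were tested on simulated data. Lists were read with Python 3.11.15 and pandas 2.3.3, and figures drawn with matplotlib 3.10.9.

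The comparison and the gene lists were chosen with earlier results of these data known. Genes named are the 12 higher and 12 lower with the smallest adjusted p, leaving out predicted genes, up to 5 of each list by p, a list of 31 genes of ageing and apigenin response, and the 5 on each side with the smallest p for the difference of age effects. Stat2, Irf9, C4a, Cd3d, Cd3e and Gm15446 were added after their values were seen. A few genes picked by these criteria are not reported here. Gene spans are GENCODE's on GRCm38, the build of mm10, and promoters are RefSeq's on GRCm38.p6, with symbols found for 96.3% of the genes tested.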

Additional observations from a re-analysis of the deposited data

Results flagged for a closer look

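Single libraries stood apart from the others of the old apigenin group in 21 of 317 genes and summed lists checked with Dixon's test, where chance alone gives about 1 in 20. All values are normalised read counts, and groups of 3 young libraries were not checked. Old replicate 4 was highest for the myeloid and reactive genes Lyz2 (1299.6, others 725.8 to 859.7), Cst7 (93.6, others 47.5 to 59.3), Mmp12 (36.9, others 13.3 to 16.5) and Lcn2 (364.8, others 57.1 to 136.8). It was also highest for H2-K1 (2731.5, others 1631.4 to 1838.8), the complement inhibitor Cd59a (512.3, others 294.4 to 352.2) and the summed senescence list (34607.7, others 29120.6 to 30565.6). With old replicate 4 left out, the rises of Lyz2, Cst7, Mmp12 and H2-K1 and the fall of Cd59a still passed.

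Old replicate 3 was lowest for the cerebellar list (41331.4, others 93100.9 to 114100.8), for its gene Itpr1 (23428.6, others 40367.0 to 44013.6), and for the bicarbonate transporter Slc4a4 (7198.5, others 9978.9 to 10560.3), the ciliary gene Dnah6 (74.4, others 193.1 to 221.4) and Tap1 (167.5, others 227.1 to 245.7). The same library was highest for the forebrain gene Lhx2 (2649.7, others 1709.2 to 1942.3), the thalamic gene Gbx2 (148.9, others 116.5 to 124.2), Egr3 (6394.2, others 3617.1 to 4157.3), Bdnf (1208.5, others 902.3 to 980.1) and Pcdhb8 (227.4, others 163.5 to 178.5).

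Old replicate 2 was lowest for Nnt (470.2, others 595.8 to 624.4) and Tnfrsf1b (213.6, others 256.1 to 269.8), and highest for the summed glucocorticoid targets (48384.5, others 38364.7 to 40369.9). Old replicate 5 was highest for the summed markers of pericytes and smooth muscle (10807.9, others 6240.5 to 7517.0).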

How the results depend on the processing

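The 278 genes (224 higher, 54 lower) became 485 (340 and 145) in DESeq2, 2537 (1473 and 1064) with array weights, 438 (323 and 115) with the brainstem covariate, 443 (336 and 107) with young apigenin replicate 3 added in its rows before the break, and 130 (117 and 13) in the 8 apigenin libraries alone. With young replicate 1 and old replicate 3 both left out, a setting chosen after seeing the data, 166 were called (137 and 29). With 1 library left out the count was 149 to 389, with 127 to 284 higher and 19 to 105 lower, the lowest without a young library and the highest without old apigenin replicate 5. In DESeq2 277 of the 278 were among the calls, in array weights 277 and in edgeR 250. The cause of these shifts was not tested, and the settings that leave libraries out also hold fewer libraries. Same-numbered libraries did not deviate together in all 3 pairs (correlations -0.1307 to 0.2073), so the numbers were not used as pairs, and a replicate block gave 281 calls. Of 76 named genes that passed, 40 lost the call in none of those of the 21 alternatives that tested them, and no named gene reversed. The test of the difference of the age effects called 0 genes in each alternative run, with 131 (mean of at least 50) to 1716 (array weights) at an unadjusted p under 0.05. Depth limits genes of a few reads, such as Cxcl10 and Mmp12, and 3 young libraries limit all counts.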

Other observations

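Several cell types and brain parts gave no call between old and young apigenin mice. Choroid plexus genes, which make cerebrospinal fluid, had a median log2 difference of -0.041 over 16 genes, and their summed normalised read counts ranged widely, from 21467.9 to 62587.5 in young and from 31994.8 to 66182.5 in old libraries. In vehicle mice the median of these genes was -0.406, also with 0 calls. Ependymal genes had a median of -0.239 over 14, and genes of fibroblasts and meninges 0.095 over 12. Genes of cortex and hippocampus stood at -0.128 over 16, and those of the striatum at 0.187 over 14, of which 13 were above 0. Glucocorticoid targets stood at 0.131 over 15.

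Traces of other tissues differed between libraries. Growth hormone (Gh), made in the pituitary, was at 0 in all 3 young libraries and in 3 of 5 old ones, and reached 151.2 in an old library. The haemoglobin genes Hba-a1, Hba-a2, Hbb-bs and Hbb-bt were listed at 0 in all 17 libraries. As the annotation and counting program are not given, these values do not show that blood was absent. Alas2, the first enzyme of haem synthesis in red cell precursors, reached 147.3 in young and 642.0 in old apigenin libraries. These genes were chosen for mention after their values were seen.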
